A study of Coccomyxa subellipsoidea C-169 with 6 samples.

Results

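Transcripts of 6 genes for motor proteins and replication proteins were examined in the unicellular green alga Coccomyxa subellipsoidea C-169. They were 4 kinesin genes (20645, 13773, 37341 and 15452) and 2 genes of minichromosome maintenance (MCM) proteins (52389 and 911), out of 9409 genes in the deposited table. The kinesins were picked because the study names them among its most upregulated genes, and the MCM genes because they stand among its differentially expressed genes, so their difference between the CO2 levels had chosen them and is given below as a description, with no test. Libraries came from cultures supplied with 2% CO2 (CG) and from cultures supplied with 0.04% CO2 (AG), 3 biological replicates each, all of strain C-169 in Bold's Basal Medium under continuous light and harvested on day 4. RNA was measured by digital gene expression (DGE), a sequencing assay that counts short reads per gene.

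Kinesins hydrolyse ATP to move on microtubules or to shape them. Some carry cargo through the cell, and others build the spindle and move chromosomes at mitosis. MCM proteins form the ring-shaped helicase that is loaded on origins of replication and unwinds DNA in S phase, and in the green alga Chlamydomonas their transcripts, like those of many replication genes, are known to peak around cell division. The names come from the study, whose annotation of 52389 and 911 is a best match in another species, and were not checked here against sequences. Which kinesin class or MCM subunit each gene encodes is not given in the sources used here, and the other kinesin genes of the alga were not analysed here.

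Counts summed to 2674507, 2724210 and 3740989 in CG 1, CG 2 and CG 3, and to 3965553, 3825993 and 4969639 in AG 1, AG 2 and AG 3. The genes described here were rare, so each count is given. Levels are given as CPM, counts scaled to library size and by TMM, which corrects for differences in library composition. Intervals of levels are 95% counting intervals, exact for whole Poisson counts. The MCM genes have fractional counts in CG 1 and CG 3, where the same formula gives approximate intervals. Those of ratios are exact 95% binomial intervals on counts summed over the 3 libraries of each group. All intervals cover counting error only and leave out the spread between cultures. Reads carried no molecular identifiers. Of the 9409 genes, 8637 passed the filter on low counts. All 6 genes passed it, and did so only through their CG counts.

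Each of the 6 genes was scarce in AG and clearly present in every CG culture. Together they had 186, 383 and 666 counts in CG 1, CG 2 and CG 3, against 28, 30 and 48 counts in AG 1, AG 2 and AG 3, although the AG libraries were the deeper ones. Their summed level was 125 ± 52.8 CPM in CG and 8.44 ± 1.42 CPM in AG (SD, n = 3 each). Once depth was equalized, the summed counts were 15.3-fold higher in CG (counting interval from 12.6 to 18.9). That interval leaves out the spread between cultures, at 68.2, 135 and 172 CPM in CG 1, CG 2 and CG 3. For all 6 genes the lowest CG library lay above the highest AG library, and even the intervals of single libraries did not overlap between the groups. Among all genes tested, 31.5% had every CG library above every AG library and 15.2% had intervals separated in that way. These shares are printed for scale only, since the contrast had chosen the genes. In RNA from whole cultures, fewer cells carrying a transcript and fewer transcripts per cell cannot be told apart.

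**Figure D1:**
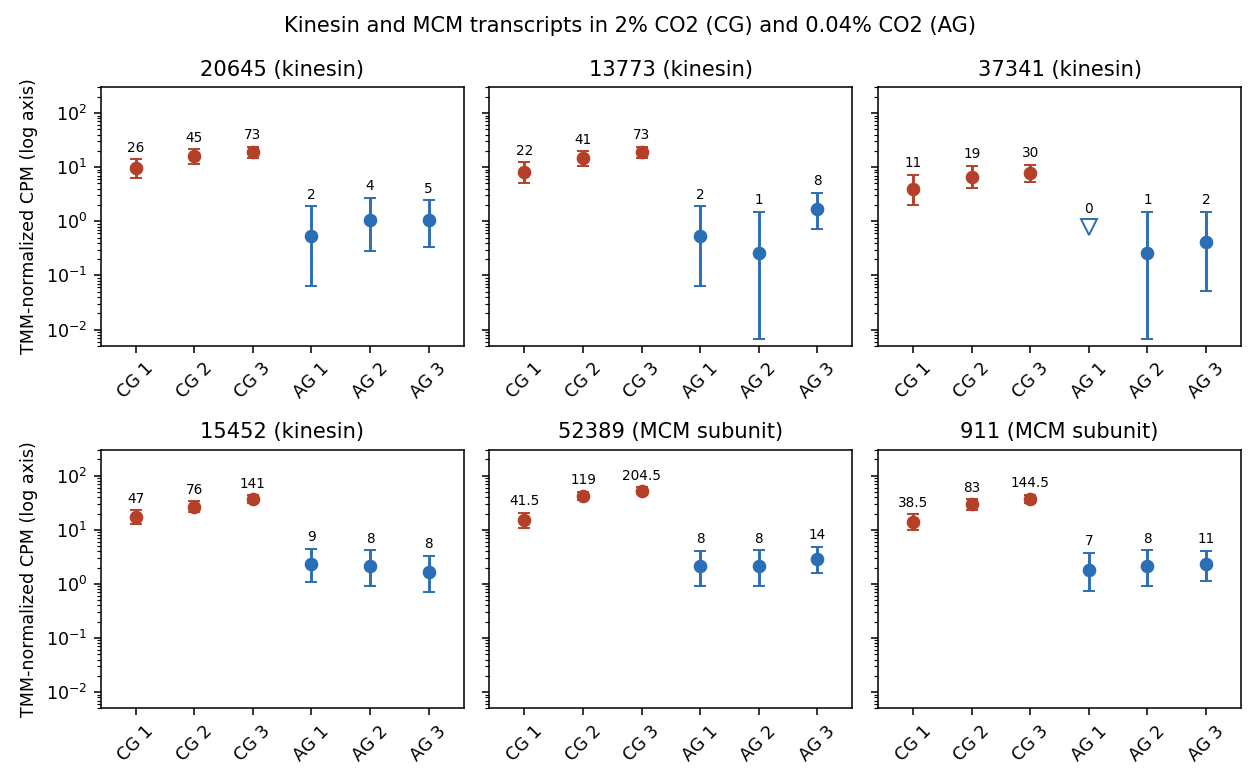
TMM-normalized CPM (log axis) of the 4 kinesins and 2 MCM genes in each CG and AG library, with 95% counting intervals and the count above each point. The open triangle is the level of 3 counts for kinesin 37341 in AG 1, where 0 were found. In every panel the 3 CG libraries lie above the 3 AG libraries, and CG 1 is the lowest of the CG libraries.

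Among the kinesins, 15452 was the most abundant. It had 47, 76 and 141 counts, or 17.2, 26.9 and 36.5 CPM, in CG 1, CG 2 and CG 3, against 9, 8 and 8 counts, or 2.36, 2.11 and 1.67 CPM, in AG 1, AG 2 and AG 3. AG libraries were close to each other, and the lowest CG library was 7.30-fold above the highest AG library. The means were 26.9 ± 9.63 CPM in CG and 2.05 ± 0.349 CPM in AG (SD, n = 3 each). The ratio of counts at equal depth was 13.9, with an interval from 9.20 to 21.8, and the fitted log2 fold change was 3.72 (standard error 0.36).

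Kinesin 20645 had 26, 45 and 73 counts in CG 1, CG 2 and CG 3, against 2, 4 and 5 counts in AG 1, AG 2 and AG 3. These are 9.54, 15.9 and 18.9 CPM in CG, against 0.525, 1.06 and 1.05 CPM in AG. Every AG value rested on 5 counts or fewer, and the interval of AG 1 ran from 0.0635 to 1.90 CPM. The ratio was 17.2, with an interval from 9.34 to 35.2, and the log2 fold change was 4.03 (standard error 0.40).

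Kinesin 13773 resembled 20645 in CG but was uneven in AG. It had 22, 41 and 73 counts in CG 1, CG 2 and CG 3, against 2, 1 and 8 counts in AG 1, AG 2 and AG 3, or 8.07, 14.5 and 18.9 CPM in CG, against 0.525, 0.264 and 1.67 CPM in AG. AG 3 held most of the AG counts of this gene. The ratio was 16.3, with an interval from 8.80 to 33.3, and the log2 fold change of 3.95 (standard error 0.55) became 5.02 without AG 3.

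Kinesin 37341 was the rarest. It had 11, 19 and 30 counts in CG 1, CG 2 and CG 3, against 0, 1 and 2 counts in AG 1, AG 2 and AG 3. In CG these are 4.03, 6.72 and 7.77 CPM, against 0, 0.264 and 0.418 CPM in AG, where AG 1 had 0 counts and an interval that reached 0.968 CPM. The floor of 3 counts that a count of 0 allows is 0.787 CPM in AG 1 when only an upper limit is set. With 60 counts over CG and 3 over AG the ratio was 26.3, but its interval ran from 8.58 to 131, the widest of the 6 genes. The fitted log2 fold change of 4.52 (standard error 0.57) became 5.22 without AG 3 and 4.03 without AG 1.

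The MCM genes had more counts than kinesins 20645, 13773 and 37341, and their gene models are longer. Gene 52389 had 41.5, 119 and 204.5 counts in CG 1, CG 2 and CG 3, against 8, 8 and 14 counts in AG 1, AG 2 and AG 3. Its level was 15.2, 42.1 and 52.9 CPM in CG, against 2.10, 2.11 and 2.93 CPM in AG, so that CG 1 was far below the other CG cultures and still 5.20-fold above the highest AG library. Counts were 15.99-fold higher in CG, with an interval from 11.01 to 24.1, and the log2 fold change was 3.93 (standard error 0.52).

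Gene 911, the other MCM gene, had 38.5, 83 and 144.5 counts in CG 1, CG 2 and CG 3, against 7, 8 and 11 counts in AG 1, AG 2 and AG 3. Its level was 14.1, 29.4 and 37.4 CPM in CG, against 1.84, 2.11 and 2.30 CPM in AG libraries. These AG values lay within each other's counting intervals. The ratio was 13.4, with an interval from 8.98 to 21.0, and the log2 fold change was 3.68 (standard error 0.43).

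The counting intervals of all 6 fold differences overlapped, and a difference in fold between the genes was not tested. Ranked by fitted log2 fold change among the 8637 genes tested, kinesin 37341 was 61st and MCM gene 911 was 100th, with 20645 at 83, 13773 at 86, 52389 at 89 and 15452 at 98 between them. A log2 fold change at least as large as that of 911 was found in 1.16% of the genes tested. The genes were picked for such values, and the ranks describe where the choice fell. In every alternative fit, with other scalings, filters and tools or with 1 library left out, the 6 log2 fold changes stayed positive, between 2.55 and 5.22.

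**Figure D2:**
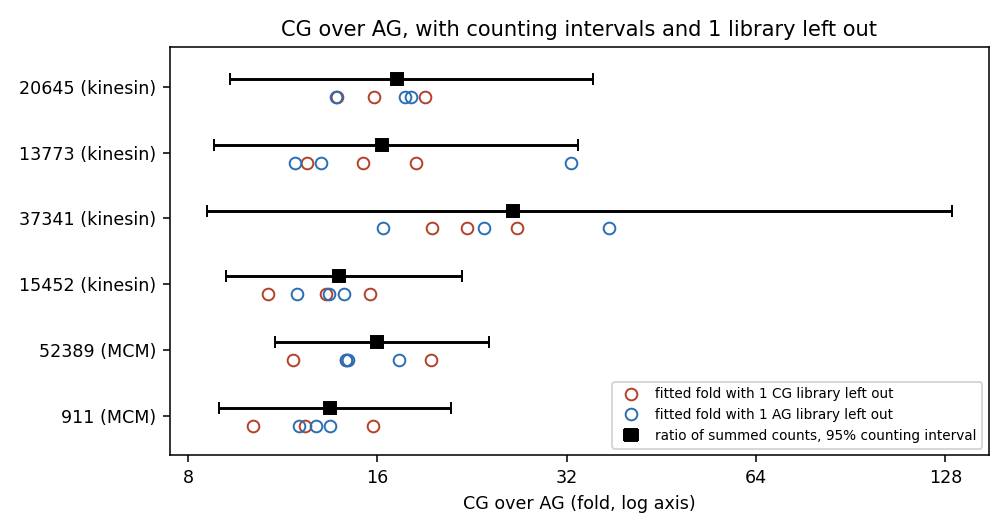
CG over AG (fold, log axis) for each gene. Squares are ratios of summed counts at equal depth with 95% counting intervals, and open circles are fitted folds with 1 library left out. The interval of 37341 is the widest, from 8.58 to 131, and the circle of 13773 farthest to the right is the fit without AG 3.

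Levels of different genes are compared per length, as RPKM, the authors' read counts per kilobase of gene and library size. The lengths implied by the deposited counts and RPKM values were 1017 bases for 37341, 1080 for 15452, 1083 for 20645 and 1221 for 13773, against 1878 for 911 and 2289 for 52389, while the median of all genes was 1221. In CG kinesin 15452 was at 25.7 ± 9.31 RPKM, MCM genes 52389 and 911 at 16.6 ± 8.82 and 14.8 ± 6.56 RPKM, and kinesins 20645, 13773 and 37341 at 14.1 ± 4.63, 11.7 ± 4.66 and 6.26 ± 1.99 RPKM (SD, n = 3). Neighbours in this order differed by less than the larger of their SDs, except 13773 and 37341. Within libraries the order was firmer at its ends. Kinesin 15452 was the highest of the 6 in all 6 libraries, and 37341 the lowest in 5 of 6, the exception being AG 2, where 13773 and 37341 had 1 count each.

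In AG the RPKM order was similar in its ends and uncertain in its middle. Kinesin 15452 was at 1.84 ± 0.316 RPKM, 911 and 52389 at 1.08 ± 0.123 and 1.01 ± 0.193 RPKM, and 20645, 13773 and 37341 at 0.787 ± 0.279, 0.649 ± 0.589 and 0.218 ± 0.201 RPKM (SD, n = 3). Against the other genes of the same library, these were levels near the bottom of the transcriptome. The highest of them, 15452 in AG 1, exceeded 8.91% of the 9409 genes in RPKM. In CG the 6 genes were spread from 37341 in CG 1, above 10.6% of the genes, to 15452 in CG 3, above 53.7%. The MCM genes 52389 and 911 exceeded 38.4% and 32.4% of the genes in CG 3, and 13.5% and 14.5% in CG 1. Even in CG, therefore, only 15452 in CG 3 passed the middle of the transcriptome.

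The pair of MCM genes had a nearly even ratio per length. RPKM of 52389 over that of 911 was 0.884, 1.18 and 1.16 in CG 1, CG 2 and CG 3, and 0.938, 0.820 and 1.04 in AG 1, AG 2 and AG 3. With the counts of each group summed, the ratio was 1.13 in CG, with an interval from 0.959 to 1.32, and 0.947 in AG, with an interval from 0.541 to 1.67. Both intervals include an even ratio, and that of AG also allows a sizeable imbalance. The counts of these genes share a feature that those of the kinesins lack. In CG 1 and CG 3 the deposited counts of 52389 and 911 end in a fraction of 0.5, and in the other 4 libraries they are whole, a pattern found in 17 genes of the table. Fractional counts of any kind occurred in 12.8% of genes, and the 4 kinesins had whole counts in every library. By the study's account, the reads counted were those that matched a single gene, and how fractions arose is not given there. Whether reads were divided between 52389 and 911, or between them and other genes, was not tested.

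The MCM share of the counts was similar in most libraries. The contrast between CG and AG had chosen the genes, so like shares in both groups largely restate their like folds. The MCM genes took 43.0% of the counts of the 6 genes in CG 1 (exact binomial interval from 35.8 to 50.5%), 52.7% in CG 2 (47.6 to 57.8%) and 52.4% in CG 3 (48.5 to 56.3%). In AG 1, AG 2 and AG 3 they took 53.6%, 53.3% and 52.1%, with intervals that reached from 33.9 to 72.5% at the widest. CG 1 had the lowest MCM share. Its interval overlapped those of all other libraries, and whether its share differed from theirs was not tested. Over the groups the MCM share was 51.1% in CG (48.3 to 53.9%) and 52.8% in AG (42.9 to 62.6%).

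The CG cultures were not alike in these transcripts. The summed level of the 6 genes was 68.2, 135 and 172 CPM in CG 1, CG 2 and CG 3, a 2.53-fold spread, against 7.35, 7.92 and 10.04 CPM in AG 1, AG 2 and AG 3. All 6 genes were lowest in CG 1 and highest in CG 3. That arrangement of the CG libraries was found in 26.1% of all genes tested and in 40.6% of the 2355 genes higher in CG. The interval of CG 1 lay below that of CG 3 for 5 of the 6 genes, all but 37341, against 18.9% of all genes tested. It lay below that of CG 2 for 2 of the 6, the MCM genes 52389 and 911, against 16.0% of all genes tested. These genes have more counts than 3 of the kinesins and so narrower relative intervals, and a difference between MCM genes and kinesins was not tested. For 0 of the 6 genes did the interval of CG 2 lie below that of CG 3, against 3.18% of all genes tested. Shares of separated intervals were not taken among the genes higher in CG, where the arrangement of CG libraries above was commoner.

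Relative to the mean of CG 2 and CG 3, CG 1 stood at 0.320 for 52389 and 0.423 for 911. The ratios of the kinesins were 0.483 for 13773, 0.544 for 15452, 0.548 for 20645 and 0.557 for 37341. The median of this ratio was 1.0 over all genes tested and 0.862 over the genes higher in CG. A ratio as low as that of 37341 or lower was found in 8.86% of all genes tested and in 17.4% of those higher in CG. This is a comparison of 1 library with 2, so no test was made. RibL5 (54775), a ribosomal protein gene that served the study as qRT-PCR reference, was likewise lowest in CG 1, with 135, 258 and 292 CPM in CG 1, CG 2 and CG 3, against 371, 300 and 354 CPM in AG 1, AG 2 and AG 3. What part such differences among the CG libraries have in the levels of the 6 genes was not tested. Without CG 1 the log2 fold changes were between 3.96 and 4.74, and all 6 were larger than with it.

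**Figure D3:**
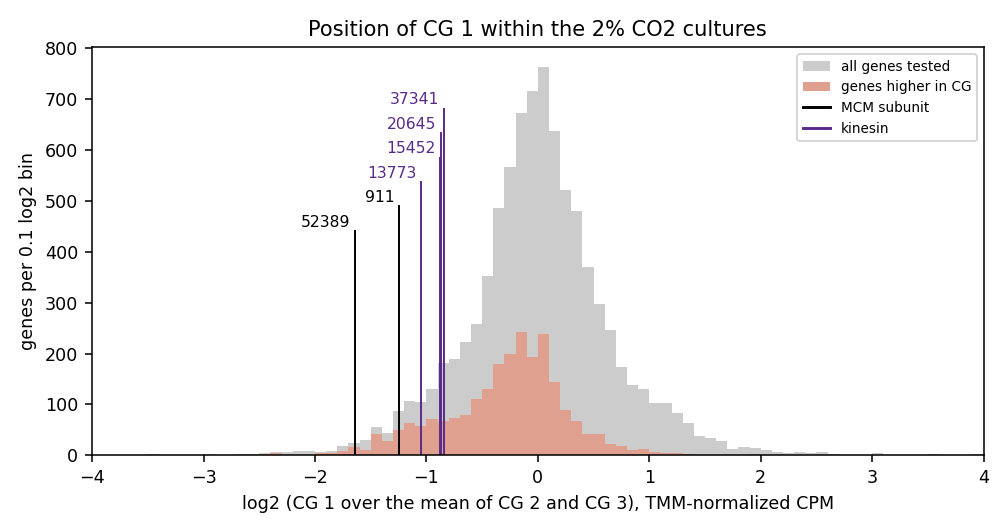
Number of genes per 0.1 log2 bin of CG 1 over the mean of CG 2 and CG 3, for all genes tested (grey) and for genes higher in CG (red), with the 6 genes as lines. The MCM genes 52389 and 911, at 0.320 and 0.423 on the linear scale, lie farther to the left than the kinesins.

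Reads were counted on both strands, so a gene on the opposite strand could add to these counts where it overlaps. Only annotated spans could be checked for such overlap. In the RefSeq annotation of assembly Coccomyxa subellipsoidae v2.0, to which 9372 of the 9409 genes were matched by locus tag, no annotated gene overlapped any of the 6, and the 6 lay on 6 different assembled sequences. Of their 12 direct neighbours 10 were in the table, and these were not chosen by their values. In edgeR's quasi-likelihood test 5 of the 10 rose, 3 fell and 2 did not pass at an adjusted p under 0.05. Of all genes tested 27.3% rose and 25.0% fell.

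Gene 61657, which lies directly beside kinesin 13773, followed it closely. It had 24, 56 and 94 counts in CG 1, CG 2 and CG 3, against 2, 6 and 7 counts in AG 1, AG 2 and AG 3. The mean level was 17.6 ± 7.99 CPM in CG and 1.19 ± 0.580 CPM in AG (SD, n = 3 each), 3.85 higher in CG on the log2 scale with a standard error of 0.52 (edgeR, adjusted p = 0.000945), which ranks 93rd of the 8637 genes tested. It passed in every alternative fit, with adjusted p between 1.62e-10 and 0.00729. Per length, 61657 was at 0.763, 0.955 and 0.90 of the RPKM of 13773 in CG 1, CG 2 and CG 3. In AG the ratio was 0.699, 4.2 and 0.612, where AG 2 rests on 6 counts of 61657 and 1 count of 13773. The sources used here give 61657 no name, and whether the 2 gene models belong to 1 transcript was not tested.

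None of the other neighbours was near the fold of the gene it adjoins. Gene 54015 beside kinesin 37341, a sodium/sulfate symporter by the study's naming, rose far more, with 1915, 2488 and 3346 counts in CG 1, CG 2 and CG 3, against 4, 1 and 2 counts in AG 1, AG 2 and AG 3. It was 10.41 higher in CG on the log2 scale with a standard error of 0.34 (edgeR, adjusted p = 4.81e-06), and 11.05 higher without AG 1. On the other side of 37341, gene 43243 rose by a log2 fold change of 0.55 (adjusted p = 0.0200), a call that was lost without AG 1 and without AG 2, at adjusted p of 0.0843 and 0.0730 in edgeR. Gene 66027 beside kinesin 15452 rose by 0.66 (adjusted p = 0.00405), and gene 12173 beside MCM gene 52389 rose by 1.36 (adjusted p = 0.000830). The level of 12173 was 17.1 ± 1.31 CPM in CG and 6.67 ± 1.02 CPM in AG (SD, n = 3 each), with no drop in CG 1.

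On the other side of 52389, gene 39634 had a log2 fold change of -0.63 (edgeR, adjusted p = 0.0153), a call lost without CG 2, AG 2 or AG 3, at adjusted p of 0.0575, 0.0523 and 0.0565. Gene 31701 beside kinesin 20645 had -0.51 (adjusted p = 0.0140), lost without AG 3 at 0.0592, and gene 43874 beside MCM gene 911 had -0.46 (adjusted p = 0.0488), lost in each fit with 1 library left out, at adjusted p from 0.0606 to 0.155. The neighbours that did not pass were 49257 beside 20645, at -0.25 (adjusted p = 0.238), and 43872 beside 911, at -0.41 (adjusted p = 0.218). Gene 43872 had 18.0, 32.5 and 39.6 CPM in CG 1, CG 2 and CG 3, against 41.7, 39.4 and 39.9 CPM in AG 1, AG 2 and AG 3. Like 911 it was lowest in CG 1 and highest in CG 3 among the CG libraries, an order found in 26.1% of all genes tested. Its CG 1 level was 0.498 of the mean of CG 2 and CG 3, against 0.399 for 61657 and from 0.723 to 1.40 for the other 8 neighbours in the table. With RibL5 as the only scaling gene the signs of 39634, 31701, 43874, 49257 and 43872 turned, to between 0.14 and 0.41, and none of these passed.

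**Figure D4:**
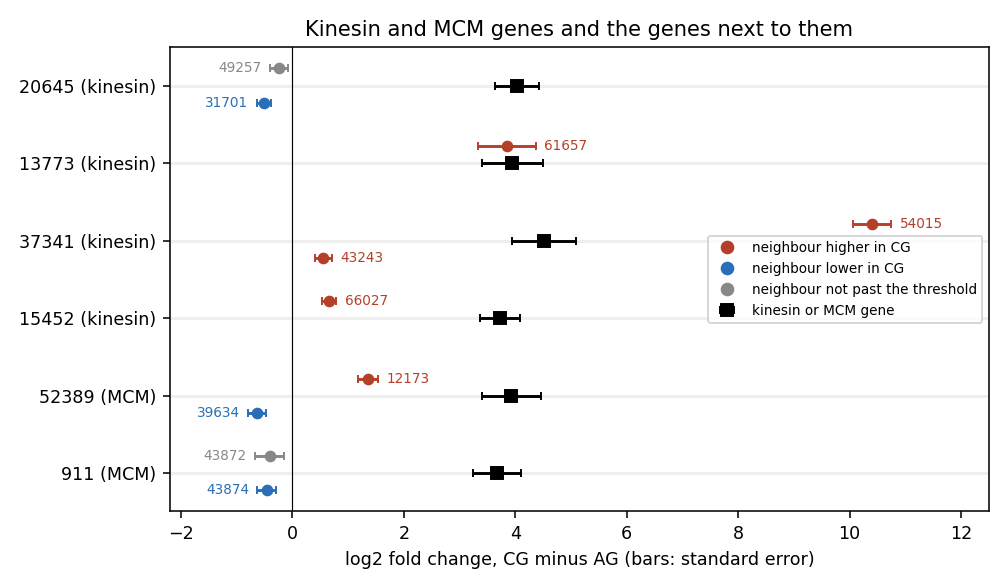
Log2 fold change, CG minus AG, of each kinesin and MCM gene (squares) and of its direct neighbours (circles), with standard errors. Only 61657, beside kinesin 13773, lies near the gene it adjoins (3.85 against 3.95), while 54015, beside 37341, is far higher at 10.41.

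The genes whose profile was most like that of the 6 were sought by the Pearson correlation of log2 CPM with the mean of the 6, over the 6 libraries. The 6 libraries fall into CG and AG, so that any gene with a steady difference scores high, and 1128 of 8631 other genes had an r of at least 0.95. The coefficient ignores the size of the difference. The 6 genes themselves had r from 0.984 (13773) to 0.998 (911) with their own mean. As many as 189 other genes had an r of at least 0.99, so this score does not set the 6 apart. The first were 65033, 63790, 30877, 46570 and 17342, with r from 0.9984 to 0.9991 and no lower than 0.9979 with 1 library left out. Of these, 46570 had the largest fold between the groups, at 50.2, 103 and 131 CPM in CG 1, CG 2 and CG 3, against 8.13, 8.72 and 9.52 CPM in AG 1, AG 2 and AG 3. Gene 63790 was at 6.23, 9.90 and 12.9 CPM in CG 1, CG 2 and CG 3, against 1.31, 1.32 and 1.67 CPM in AG 1, AG 2 and AG 3, and 17342 at 52.4, 68.2 and 76.6 CPM in CG, against 26.2, 27.2 and 28.2 CPM in AG. The folds of 65033 and 30877 were far smaller. Gene 65033 was at 195, 213 and 217 CPM in CG, against 153, 157 and 160 CPM in AG, and 30877 at 258, 291 and 292 CPM in CG, against 191, 194 and 199 CPM in AG. Gene 61657 reached an r of 0.989, at rank 220. The sources used here give none of these genes a name.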

How the data were processed

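Clean short reads had been aligned by the authors to the C-169 transcripts of Phytozome using Bowtie (version not given in the sources used here), with 1 mismatch allowed, and hits on both strands were counted. The deposited values are estimated counts, since some are fractional, and were rounded for the tests, and the deposited RPKM values were used as the authors made them. The deposited fold changes and FDR values were not used. Counts were fitted in R 4.3.3 with edgeR 4.0.16 (TMM, filterByExpr with a minimum count of 10, robust quasi-likelihood, Benjamini-Hochberg over all genes tested). The threshold for a call was an adjusted p of 0.05. The fit was tested on simulated data. Log2 CPM for correlations had a prior count of 2.

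The 6 genes and the lists were chosen with earlier results of these data known. Named genes are the 6, their direct neighbours in the annotation, and the 5 genes most like them. Lists of other kinesin, MCM, replication, microtubule, cell cycle and histone genes had been planned by product names or proteins. The sources used here, which hold the study's supplementary tables in part, give such names for few genes, so these lists were not analysed here, and no sequence is printed.

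Alternatives were other scalings, no count filter, a replicate block, each library left out, DESeq2 1.42.0, and limma 3.58.1 on RPKM values in log2 after adding 1 or 0.1. Scaling by RibL5 (54775), the qRT-PCR reference gene, and the alternatives for neighbours and correlations were chosen after seeing the data. Python 3.11.15 (scipy 1.17.1, numpy 2.4.6, pandas 2.3.3, matplotlib 3.10.9) gave the intervals and plots.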

Additional observations from a re-analysis of the deposited data

How the results depend on the processing

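The 6 log2 fold changes kept their direction in all 14 alternative fits. With 1 library left out they were between 3.78 and 4.25 for 20645, 3.56 and 5.02 for 13773, 4.03 and 5.22 for 37341, 3.42 and 3.96 for 15452, 3.55 and 4.28 for 52389, and 3.35 and 3.98 for 911. In limma on log2(RPKM + 1), the pseudocount is of the size of the AG levels. There they were 3.04, 2.93, 2.55, 3.17, 2.97 and 2.83 for 20645, 13773, 37341, 15452, 52389 and 911. Scaling by RibL5, which moved the median of all genes by 0.72, gave 4.59, 5.06 and 4.29 for 20645, 37341 and 15452. It left 264 genes lower in CG in place of 2157, and 91.0% of calls higher in CG in place of 52.2%. No neighbour fell in that fit (0 in place of 3), and 31701, 39634 and 43874 turned to 0.22, 0.18 and 0.19. The correlations of 65033, 30877 and 17342 with the 6 genes became 0.858, 0.887 and 0.976. Over the fits with 1 library left out, 0 to 2 neighbours fell and 4 to 5 rose.

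No label pairs the cultures by number. CG and AG libraries numbered alike had deviations from their group means that correlated at -0.034, 0.038 and -0.051, and 1 of 3 CG libraries correlated best with the AG library of its own number. With the replicate block 2098 genes were higher and 1973 lower in CG, and 37341 had a log2 fold change of 4.53. The call of 43874 was lost in all 14 alternatives, with adjusted p of at least 0.0502.

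Counts of at most 14 per AG library limit what can be said of the 6 genes, and so does the spread of the CG cultures. From the lowest to the highest CG library it was 2.53-fold for the 6 genes summed and 3.48-fold for 52389. The counting intervals leave this spread out, so the folds are less certain than those intervals show.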
